A study of Cucumis sativus with 6 samples.

Results

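The peel and the flesh of cucumber (Cucumis sativus) fruits were compared 3 days after self-pollination, to see which differences between the outer and the inner tissue were present that early. The peel library and the flesh library of day 3 made up 2 of the 6 RNA-seq libraries of the study. All 6 came from the inbred line YB, from peel or flesh dissected 3, 6 or 9 days after self-pollination. Each library was 1 mix of 3 fruits, so each tissue and day had 1 library. The study's title names candidate genes for astringency, the drying taste of tannins and other phenolic compounds. The labels give no treatment, no genotype other than YB, and no account of whether ovules, seeds or placenta stayed in the dissected flesh.

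A cucumber fruit grows from an ovary, and at this age cells still divide and expand throughout. Its epidermis makes the cuticle, a layer of cutin and wax that seals the surface, and bears the spines and bloom of the peel. The flesh lies inside it and surrounds the seed cavity with the ovules. Sieve tubes of the phloem, which cucurbits have within the vascular bundles and also as a network outside them, carry sugars and large amounts of a few characteristic proteins.

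Genes were described where FPKM, the fragments counted per kilobase of a gene model and per mapped fragments of its library, was at least 1 in either library of day 3. This held for 17409 of the 21317 genes of the table. Each gene has a log2 difference, which is log2(FPKM + 1) in peel minus log2(FPKM + 1) in flesh, and a gene was counted as different at 2 or more log2 units either way, which is 4-fold on that scale. With 1 library per tissue there is no test, no p-value and no estimate of the variation between fruits. Fold ratios of FPKM are given with exact 95% intervals that cover counting error only. Where a library had no read, the ratio is given against a floor of 3 reads. Such a ratio is not a 95% limit: for Csa6G152310 the floor gave 40.6 and the exact lower limit was 32.6. At the FPKM limit, 138 genes had 1 to 1.1 FPKM in their higher library and 133 had 0.9 to 1. At the fold limit, 68 genes had 2 to 2.1 log2 units and 86 had 1.9 to 2, so neither limit marks a gap.

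The peel library of day 3 held 20999942 recovered reads and the flesh library 23599019, and the other 4 held 14899922 to 23740219. A principal component analysis of log2(FPKM + 1) over 18455 genes set the peel library of day 9 apart, at 125.9 on the first component (51.3% of the variance). The libraries of day 3 lay at 8.07 for peel and -60.0 for flesh. The shares that rest on day 9 are therefore given beside those of day 6.

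At day 3, the peel exceeded the flesh by at least 4-fold in 474 genes (2.72% of those described), and the flesh exceeded the peel by as much in 153 (0.879%). The median log2 difference of all described genes was 0.00. The widest difference toward peel was that of a cortical cell-delineating protein and the next that of a lipoxygenase. The widest toward flesh was that of a DC2.15 proline-rich protein and the next that of the transcription factor UPBEAT1. The counts depend on the 1 FPKM added before the log: with 0.1 FPKM they were 818 and 349, and with 5 FPKM 170 and 34. With 5 FPKM, 69 of 155 genes picked by the naming rule and past 4-fold were under it. Unknown proteins made up 45 of the 474 and 30 of the 153. Among the genes higher in peel, 31 had no read in flesh, and among those higher in flesh, 37 had none in peel. In bulk tissue such as this, fewer cells of a type and less RNA per cell cannot be told apart, which applies to every difference below.

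**Figure D1:**
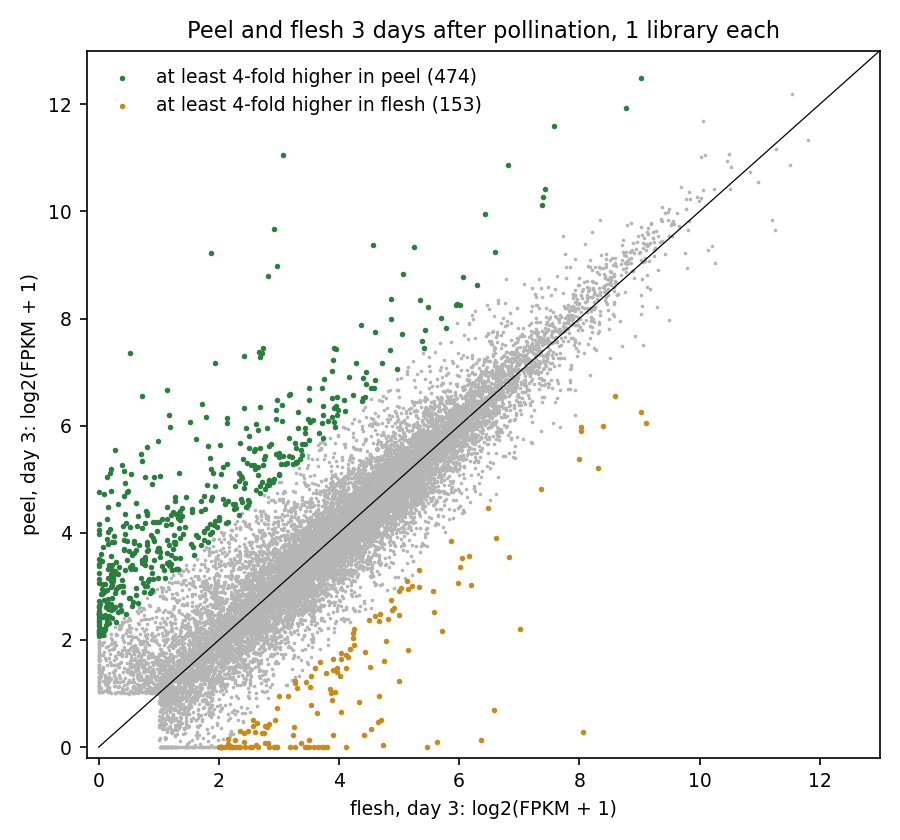
Each point is 1 of the 17409 described genes, with log2(FPKM + 1) in flesh on the horizontal axis and in peel on the vertical axis, 1 library each; the line marks equal levels. The 474 genes higher in peel (green) reach greater levels than the 153 higher in flesh (orange), of which 37 have no read in peel.

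The largest difference toward peel belonged to the cortical cell-delineating protein (Csa3G026660), a small proline-rich wall protein named after a maize gene of the root cortex. It had 2133 FPKM in peel (34822 reads) and 7.43 FPKM in flesh (147 reads), a ratio of 287 (244 to 340). A cell wall glycine-rich protein (Csa7G037600), of a family of structural wall proteins, stood at 507 FPKM in peel and 6.83 in flesh. Germin-like protein 6 (Csa1G596420), of a family of extracellular cupin proteins, stood at 440 and 6.09 FPKM. These 3 genes thus ranged from abundant transcripts in peel to a few FPKM in flesh, and all 3 stayed over 4-fold higher in peel at days 6 and 9. The glycine-rich protein differed by 6.02 log2 units at day 3, by 8.85 at day 6 and by 9.41 at day 9, whereas the cortical cell-delineating protein differed by 7.98, 6.67 and 3.54.

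A putative carbonic anhydrase (Csa1G120470), an enzyme that interconverts carbon dioxide and bicarbonate, was at 93.6 FPKM in peel and 0.642 in flesh. Its difference of 5.85 log2 units at day 3 compares with 3.34 at day 6 and 0.52 at day 9. A pair of neighbouring efflux transporters was also higher in peel. Csa6G499170, named multidrug resistance protein MdtK, had 37.4 against 0.306 FPKM, and Csa6G499180, a MATE family protein, had 47.8 against 0.746. MATE proteins move metabolites out of the cytosol, and flavonoids are among their known cargoes in other plants. Both transporters were past 4-fold at each later day, with 4.70 and 4.31 log2 units at day 6.

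Cuticle genes were among those already apart. Of 36 described members of the cuticle and wax list, 10 were past 4-fold toward peel and 3 toward flesh, or 27.8% and 8.33% against 2.72% and 0.879% of all described genes. The median of the list was 0.26 log2 units, and its members ranged from -3.37 to 4.58. The 3-ketoacyl-CoA synthases, which elongate fatty acids toward the very long chains of wax, gave 4 of the 10. Csa1G501850 had 26.5 FPKM in peel (1167 reads) and 0.153 in flesh (8 reads), a ratio of 173 (87.5 to 402). Csa3G144140 had 31.9 against 0.698 FPKM, and Csa5G609650 had 21.2 against 1.61 FPKM. The smallest of the 3 ratios was that of Csa5G609650, at 13.1 (10.5 to 16.6).

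The fatty acyl-CoA reductases, which make wax alcohols, gave 3 genes in a row on chromosome 1 (Csa1G145840, Csa1G145850 and Csa1G145860). They had 9.45, 9.00 and 4.10 FPKM in peel, and in flesh 0, 0.113 and 0.0963. Csa1G145840 rested on 72 reads in peel and none in flesh, which is 28.4-fold against the floor of 3 reads. Another reductase, Csa6G152310, went the other way. It had 0 FPKM in peel and 3.07 in flesh (0 and 144 reads, 40.6-fold against the floor). CER1 genes, named for the Arabidopsis protein that makes wax alkanes, split between the tissues. Csa1G294020 (CER1-2) had 22.3 FPKM in peel and 3.73 in flesh, and Csa6G079750 had 5.39 against 0.0166. Csa3G127770 had 0.585 FPKM in peel and 15.4 in flesh, and Csa3G127760 had 4.13 against 24.5. Summed FPKM here and below runs over all genes of a family or list in the table, described or not. The sum of the CER1 genes at day 3 was 33.3 FPKM in peel and 43.9 in flesh, with the peel not ahead. The day 6 sums were 63.2 against 36.6 FPKM and those of day 9 were 116 against 1.88.

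Of the 13 cuticle genes past 4-fold at day 3, 11 were past it in the same direction at day 6 and 9 at day 9. The peel level of several went on to higher values: the reductases summed to 23.1 FPKM in peel at day 3, 72.9 at day 6 and 269 at day 9. In flesh the same sum was 6.39, 3.04 and 0.341 FPKM. For the 3-ketoacyl-CoA synthases the sums over the 3 days were 266, 316 and 537 FPKM for peel, against 156, 89.9 and 90.2 for flesh.

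Lists of esterases and lipid carriers, set by product names alone, leaned the same way, and where their products act was not measured. GDSL esterases and lipases, a family that includes the cutin synthases of other plants, had 10 of 44 described members (22.7%) past 4-fold toward peel and 2 toward flesh, with a median of 0.76 log2 units. At day 3 Csa1G665920 had 43.6 FPKM in peel and 0.632 in flesh, with 827 against 0.758 at day 6 and 2482 against 1.86 at day 9. Csa3G075990 had 83.7 against 2.30 FPKM at day 3. In the other direction Csa7G448130 had 1.35 FPKM in peel and 31.0 in flesh, and it differed by -3.58 log2 units at day 6 and -4.04 at day 9. The family therefore held members of either tissue at day 3.

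Lipid transfer proteins, which are thought to carry wax and cutin precursors across the wall, had 4 of 19 described members (21.1%) past 4-fold toward peel and none toward flesh, with a median of 0.65. Csa4G141240 had 15.5 FPKM in peel and 0 in flesh (85 and 0 reads, 33.5-fold against the floor of 3 reads). It had 112 against 0.742 FPKM at day 6 and 3133 against 4.19 at day 9. Csa3G728130 had 221 against 42.0 FPKM at day 3, 1060.0 against 37.6 at day 6 and 3712 against 4.23 at day 9. At day 3 the list as a whole summed to 800 FPKM in peel and 606 in flesh. The day 6 sums were 2181 against 745 FPKM and those of day 9 were 10567 against 522.

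Regulators named for the epidermis did not all lie on the peel side. Of 13 described genes in that list, 9 were trichome birefringence-like wall genes, and the list had a median of -0.10. Past 4-fold, 1 was higher in peel (7.69%) and 2 in flesh (15.4%), against 2.72% and 0.879% of all described genes. Counts this small say little about the list. Protodermal factor 1.1 (Csa6G423360), whose relatives in Arabidopsis and cotton mark the outermost cell layer, had 48.3 FPKM in peel and 6.09 in flesh, a ratio of 7.93 (7.21 to 8.74). It had 23.8 against 1.64 FPKM at day 6, and 1.91 against 2.53 at day 9. A pair of neighbouring GLABRA homeobox genes, named for an Arabidopsis regulator of epidermal cells, was higher in flesh: Csa3G484830 had 0.202 FPKM in peel and 5.72 in flesh, and Csa3G484840 had 0.0721 and 4.34. In the stomatal lineage list, 0 of 11 described genes were past 4-fold toward peel, which says little beside the 2.72% of all described genes. An EPIDERMAL PATTERNING FACTOR-like gene (Csa1G533610), of a family of signal peptides, was past it toward flesh, with 0.111 FPKM in peel (1 read) and 3.46 in flesh (37 reads).

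**Figure D2:**
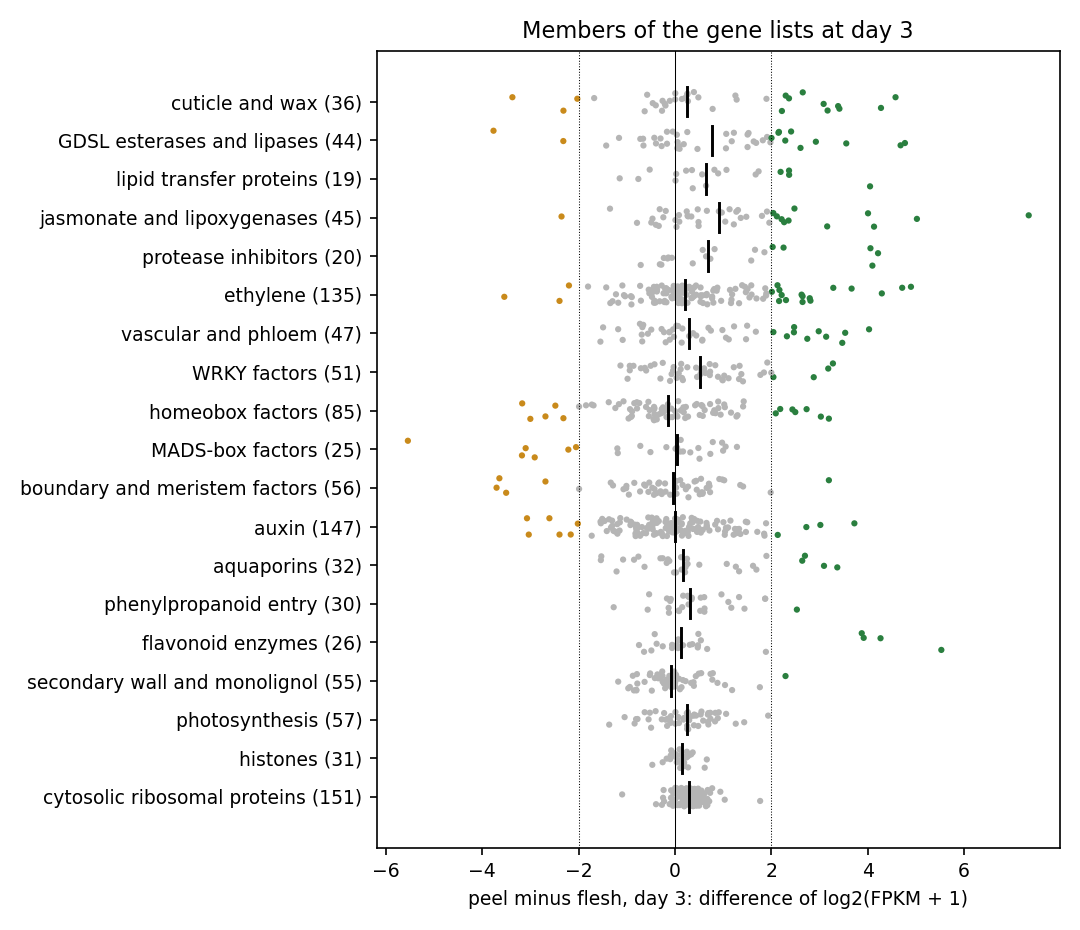
Each point is 1 described gene of 19 of the 44 lists, by its log2(FPKM + 1) difference at day 3 (peel minus flesh, 1 library each); black bars are list medians, dotted lines mark 4-fold, and numbers in brackets are described genes. Cuticle, GDSL, lipoxygenase and phloem lists carry long tails toward peel, MADS-box factors carry a tail toward flesh, and photosynthesis, histone and ribosomal lists stay within 4-fold.

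Ethylene genes held the largest number of list members past 4-fold at day 3, in 1 of the longer lists. Of 135 described, 16 (11.9%) were higher in peel and 3 (2.22%) in flesh, against 2.72% and 0.879% of all described genes. Their median was 0.20 log2 units. Several shorter lists had larger shares toward peel, among them cuticle and wax (27.8%) and jasmonate and lipoxygenases (24.4%). Both enzymes of ethylene synthesis were among the ethylene genes past 4-fold. The ACC synthase Csa4G049610, which makes the ethylene precursor, had 60.9 FPKM in peel and 9.02 in flesh, and Csa6G006800 had 7.12 against 0.168. ACC oxidase 4 (Csa1G064730), which turns the precursor into ethylene, had 51.2 FPKM in peel and 0.986 in flesh, a ratio of 51.9 (38.6 to 71.4). The list's ACC oxidase names cover 35 described genes, which is many for this family, and some of these names may stand for related oxygenases.

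Ethylene-responsive transcription factors lay on either side. Number 13 (Csa5G150420) had 31.9 FPKM in peel (1042 reads) and 0.104 in flesh (4 reads). Csa6G017030 had 304 against 60.7 FPKM and Csa6G486790 had 80.3 against 5.41. Toward flesh, number 5 (Csa3G164580) had 3.52 FPKM in peel and 51.6 in flesh, and number 7 (Csa2G382550) had 4.60 and 24.7. A putative ACC oxidase (Csa4G622820) was higher in flesh too, with 1.17 against 10.4 FPKM. Of the 19 genes past 4-fold in either direction, 12 were past it the same way at day 6, 13 at day 9 and 11 at all 3 days.

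Lipoxygenases, which oxidise the fatty acids from which jasmonates and leaf aldehydes are made, had 10 of 21 described members past 4-fold toward peel and 1 toward flesh. Their summed level was 5731 FPKM in peel and 991 in flesh. Csa2G023940 had 3904 FPKM in peel and 436 in flesh, and Csa2G028480 had 594 against 2.67, a ratio of 223 (160 to 320). In contrast Csa6G424000 had 6.89 FPKM in peel and 39.4 in flesh, and it stayed on the flesh side with 6.74 against 87.6 at day 6 and 10.3 against 125 at day 9. The wider jasmonate and lipoxygenase list counted 11 of 45 toward peel and 1 toward flesh, with a median of 0.91. Of these 12, 6 were past 4-fold the same way at day 6 and 7 at day 9.

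All 10 lipoxygenases past 4-fold toward peel lie in runs of neighbouring described genes, which may have undescribed genes between them. Csa2G023940 and Csa2G028480 belong to a run of 5 lipoxygenases on chromosome 2, at 2811274 to 2875815 in the positions of the deposited table, whose genome build is not given in the sources used here. A run of 5 lipoxygenases and a receptor-like kinase lies on chromosome 4 at 11108440 to 11222863. The chromosome 4 genes were low, apart from Csa4G286950, whose 72.4 FPKM in peel rested on 48 reads and whose flesh value on 1 read, a ratio of 57.5 (9.83 to 2316). No read fell on it at days 6 or 9. Near-identical copies may share reads, so the split of levels between such neighbours is uncertain. Some of the gene models are short. Csa2G023940, which spans 2811274 to 2811774, alone held 3904 of the 5731 FPKM summed in peel. Csa4G286950 spans 11112547 to 11112736. Whether such models are parts of longer genes was not tested.

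The lists of defence proteins differed from each other. Protease inhibitors had 5 of 20 described members past 4-fold toward peel and none toward flesh, with a median of 0.69. A cysteine proteinase inhibitor (Csa1G123470), which blocks papain-like proteases, had 1872 FPKM in peel and 112 in flesh, and a proteinase inhibitor (Csa3G142400) had 646 and 36.8. At day 6 both were still past 4-fold toward peel, at 336 against 65.7 and 592 against 70.2 FPKM. By day 9 they had 62.1 against 70.8 and 169 against 349 FPKM. The pathogenesis-related and latex list had 7 of 133 (5.26%) toward peel, led by the major latex-like protein Csa5G602750 with 173 against 5.64 FPKM. Peroxidases, which couple phenolics in the wall, had 3 of 31 toward peel and 2 toward flesh. Csa4G285780 had 173 FPKM in peel and 14.2 in flesh. Germin-like proteins had 2 of 9 toward peel, Csa1G596420 above and germin-like protein 1 (Csa1G662790) with 18.1 against 0.101 FPKM. Their median was -0.45, and it was 2.05 when genes under 5 FPKM in both libraries were left out.

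A group of phloem genes was past 4-fold toward peel at day 3 and within 4-fold at the later days. Of 47 described genes in the vascular and phloem list, 10 (21.3%) were past 4-fold toward peel and none toward flesh, and 0 of these 10 were past it again at day 6 or at day 9. Phloem filament proteins, the abundant structural proteins of cucurbit sieve tubes, had 5 of 7 described members past 4-fold. Csa7G067350 had 5752 FPKM in peel (76702 reads) and 517 in flesh (7958 reads), a ratio of 11.1 (10.9 to 11.4). At day 6 it had 3241 against 1304 FPKM, a log2 difference of 1.31 that was still toward peel, and at day 9 4732 against 5655. Csa7G067370 had 3104 against 189 FPKM at day 3, 1772 against 651 at day 6 and 2422 against 2507 at day 9. The flesh level of Csa7G067350 thus stood at 517, 1304 and 5655 FPKM over the 3 days, while its peel level stayed between 3241 and 5752.

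The sugar-binding phloem protein 2 genes and the phloem lectin, which occur with the filaments, followed the same course. At day 3 phloem protein 2 Csa1G542510 had 992 FPKM in peel and 84.8 in flesh, a ratio of 11.7 (11.2 to 12.2). The summed level of the 13 genes of this kind, 9 of them described, was 1388 FPKM in peel against 243 in flesh at day 3. It was 1398 against 845 at day 6 and 3106 against 3952 at day 9. An F-box gene named PP2-B1 (Csa7G056500), of a family that shares the lectin domain of phloem protein 2, had 1109 against 165 FPKM. Sieve element occlusion genes, whose products plug wounded sieve tubes, had 0 of 10 described members past 4-fold. That is too few genes to set against the 2.72% toward peel and 0.879% toward flesh of all described genes. The sums of the sieve element occlusion genes over the 3 days were 474, 140 and 47.1 FPKM for peel, and 261, 339 and 292 for flesh. The secondary wall and monolignol list holds genes of the wood-forming side of vascular bundles and had a median of -0.08. It had 1 of 55 past 4-fold (1.82% toward peel, against 2.72% of all described genes), a laccase (Csa1G533470) with 5.29 against 0.282 FPKM. How many vascular bundles each dissected tissue held is not stated, and the part of dissection in the phloem difference was not tested.

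**Figure D3:**
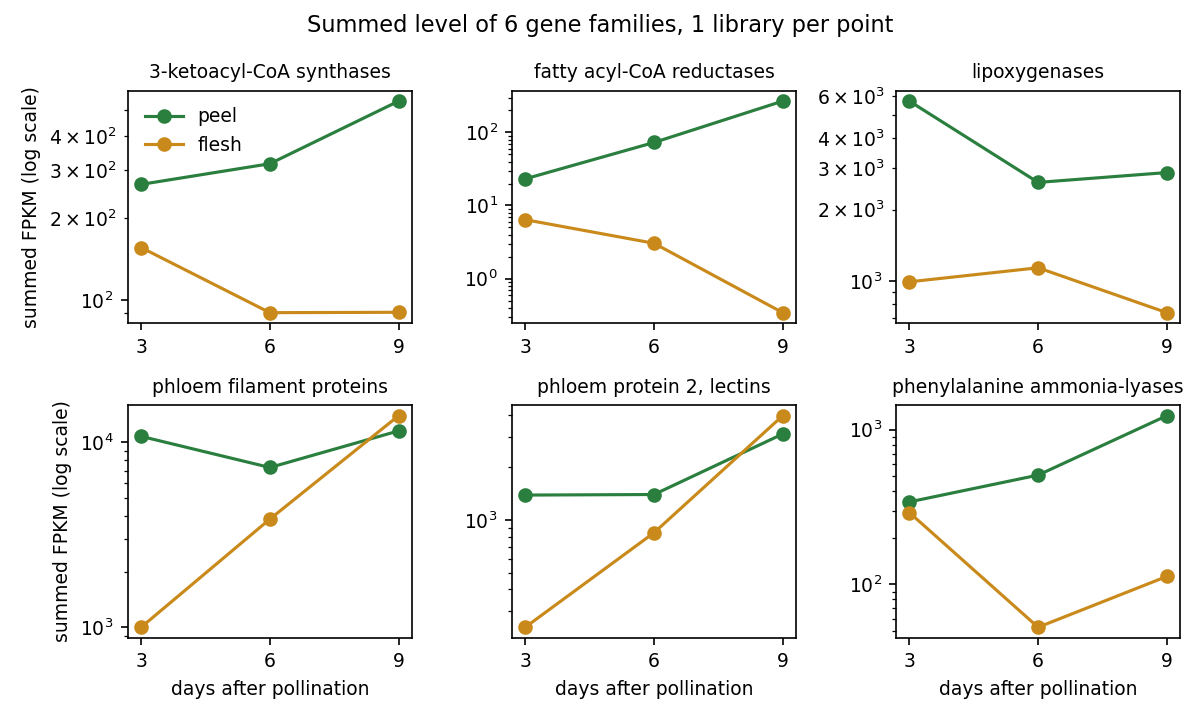
Summed FPKM of 6 gene families (log axis) against days after pollination, in peel (green) and flesh (orange), with 1 library per point. Wax families and lipoxygenases were apart at day 3 and stayed apart, phloem families were apart at day 3, less so at day 6, and flesh was ahead at day 9, and phenylalanine ammonia-lyases were close at day 3 and apart later.

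On the flesh side, the widest difference was that of a DC2.15-type proline-rich protein (Csa3G027210), named after a carrot gene of a family of small cell wall proteins. It had 0.215 FPKM in peel (3 reads) and 265 in flesh (4460 reads), a ratio of 1233 (422 to 5981). The next gene on chromosome 3, Csa3G027200, carries the same product name and went the other way. It had 163.6 FPKM in peel (1225 reads) and 0.432 in flesh (4 reads), a ratio of 379 (148 to 1392). The pair was thus nearly exclusive to opposite tissues at day 3. At day 6 Csa3G027200 had 10.5 FPKM in peel and 0.450 in flesh, and Csa3G027210 had 0.158 and 170.4. By day 9 both were low, at 0.625 FPKM in peel for Csa3G027200 and 9.25 FPKM in flesh for Csa3G027210, each with 0 in the other tissue.

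Some floral regulators were higher in flesh. MADS-box factors, which set the identity of floral organs, had 6 of 25 described members (24.0%) past 4-fold toward flesh and none toward peel, against 0.879% of all described genes. Their median was 0.04, a value that changed sign with the scaling, so the difference lay in these few members. MADS-box 2 (Csa6G095270) had 0.0627 FPKM in peel (1 read) and 48.6 in flesh (916 reads). The Agamous gene (Csa1G467100), named for the Arabidopsis factor of stamens and carpels, had 35.9 FPKM in peel and 315 in flesh, a ratio of 8.78 (8.21 to 9.40). It had 14.3 against 422 FPKM at day 6 and 3.91 against 449 at day 9. MADS-box factor 29 (Csa6G526550), named after a rice gene of the nucellus, had 0 and 8.04 FPKM (0 and 294 reads, 82.8-fold against the floor of 3 reads). It had 0 and 8.79 at day 6 and 0.0524 and 0 at day 9. Of the 6, 5 were past 4-fold toward flesh again at day 6 and 3 at day 9.

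Factors of meristems and organ boundaries had 4 of 56 described members past 4-fold toward flesh (7.14%) and 1 toward peel (1.79%). Their median was -0.05. Of the SUPERMAN-like zinc finger genes, named for an Arabidopsis factor at the border of stamens and carpels, Csa3G733980 had 0.945 FPKM in peel and 24.3 in flesh. Csa3G141870 had 0 and 11.5 FPKM (0 and 230 reads, at least 64.8-fold), and at day 6 0 and 0.382. Terminal flower 1 (Csa1G071830), which keeps shoot tips from turning into flowers, had 0.782 against 19.2 FPKM. A WUSCHEL-related homeobox gene (Csa1G042780) had 0.0540 against 5.79 FPKM. The exception toward peel was a knotted-1 homeobox gene (Csa1G004870), of a family active in meristems, with 17.4 against 1.01 FPKM, and 18.1 against 0.554 at day 6.

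Genes named for seed tissue lay on either side. Over the whole seed and ovule list, 3 of 57 described genes were past 4-fold toward peel (5.26%) and 2 toward flesh (3.51%). The list had a median of 0.14, and its genes summed to 3811 FPKM in peel and 2967 in flesh. The seed nucellus-specific protein (Csa3G630260), named for the tissue that surrounds the embryo sac and not on that list, had 0.627 FPKM in peel (9 reads) and 94.7 in flesh (1602 reads). At day 6 it had 0.761 against 530 FPKM, and at day 9 0.960 against 1.65. A legumin-like protein (Csa3G218170), of the seed storage globulins, had 10.7 FPKM in peel and 112 in flesh, and the 11S globulin next to it (Csa3G218160) had 4.75 and 47.0. The list's genes toward peel were 2 late embryogenesis abundant proteins, which also protect other dry or stressed cells, and a cupin family protein. The part of ovules or young seeds in the flesh library was not tested.

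Among the widest differences toward flesh, UPBEAT1 (Csa2G047780), a bHLH factor that controls peroxidase genes in Arabidopsis roots, had 0.0971 FPKM in peel (1 read) and 81.6 in flesh (1060 reads). It differed by -6.24 log2 units at day 3, -4.96 at day 6 and -4.90 at day 9. A CONSTANS-like zinc finger protein (Csa3G247880) had 3.61 FPKM in peel and 128 in flesh, a ratio of 35.5 (29.6 to 43.0), and differed by -3.82 and -4.07 at days 6 and 9. Both were thus in place at day 3 and kept to flesh. Other CONSTANS-like genes were past 4-fold toward peel, among them Csa2G057080 with 118 FPKM in peel and 16.9 in flesh, and Csa6G505230 with 40.8 and 5.75. A UDP-glycosyltransferase (Csa4G415930), an enzyme that adds sugars to small molecules, had 0.0220 against 25.6 FPKM, and a subtilisin-like protease (Csa3G873800) had 0.267 against 22.0. The protease had 0.163 against 0.409 FPKM at day 6. A thionin-like protein (CsaUNG012530) and a rapid alkalinization factor (Csa6G484570), a signal peptide, had no read in peel and 42.9 and 12.5 FPKM in flesh. These were 54.1-fold and 48.2-fold against the floor of 3 reads. The high rank of a PH domain protein (Csa3G911790) and a metal tolerance protein (Csa1G604090) rested on 7 and 3 reads.

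**Figure D4:**
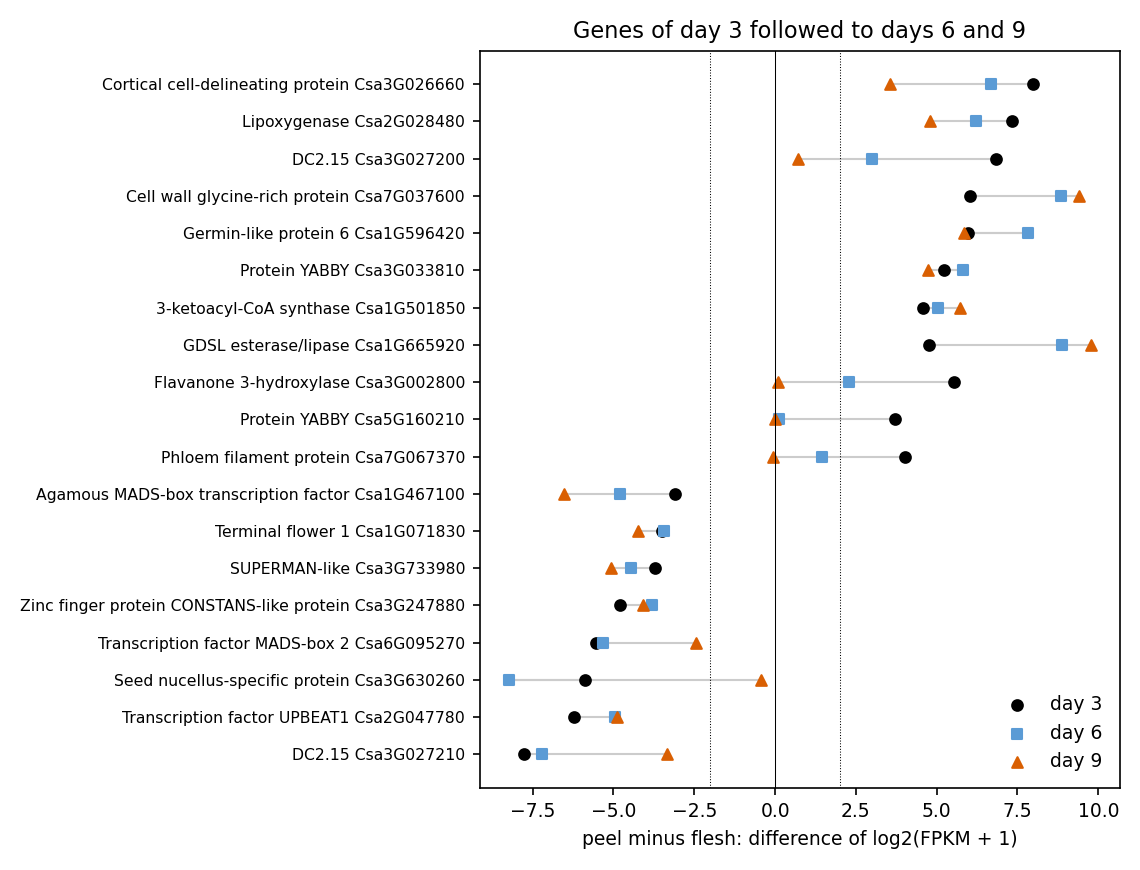
Log2(FPKM + 1) difference (peel minus flesh, 1 library each) of 19 of the genes named in the text at day 3 (circles), day 6 (squares) and day 9 (triangles); dotted lines mark 4-fold. Agamous and the GDSL esterase were further apart at day 9 than at day 3, whereas the second YABBY gene, flavanone 3-hydroxylase and the phloem filament protein were apart at day 3 and at or near 0 at day 9.

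Polarity factors, which tell the outer from the inner side of lateral organs, had 3 of 23 described members past 4-fold toward peel and 1 toward flesh. Their median was -0.18, and 0.36 when genes under 5 FPKM in both libraries were left out. The YABBY gene Csa3G033810, of a family that marks the lower or outer side of organs in Arabidopsis, had 143 FPKM in peel and 2.84 in flesh, a ratio of 50.3 (40.8 to 62.6). It remained past 4-fold at both later days. A second YABBY gene (Csa5G160210) had 16.5 against 0.329 FPKM at day 3, and 0.0867 against 0 at day 6. ATHB-14 (Csa6G514870), whose Arabidopsis namesake acts on the upper or inner side, had 10.9 against 0.464 FPKM at day 3, and 0.0152 against 0.567 at day 6. ATHB-9 (Csa7G447000), the close relative of ATHB-14 in Arabidopsis, is not on that list and was counted with the homeobox factors. It had 28.8 against 5.99 FPKM. Genes named for both sides of an organ were therefore higher in peel, and a LOB domain gene (Csa3G839790) was higher in flesh with 0.203 against 5.57 FPKM.

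Several other families of transcription factors had members past 4-fold toward either tissue. Of all described genes, 2.72% were past it toward peel and 0.879% toward flesh. Homeobox factors had 7 of 85 toward peel and 5 toward flesh (8.24% and 5.88%). Zinc finger factors had 4 and 3 of 90 (4.44% and 3.33%), and bHLH factors 3 and 2 of 22 (13.6% and 9.09%). MYB factors had 3 and 3 of 108 (2.78% each way), which toward peel is close to the share of all genes. WRKY and NAC factors, many of which respond to stress, each had 4 of 51 (7.84%) toward peel and none toward flesh. Their medians were 0.53 and 0.33. A gene named only as a transcription factor (Csa1G051740) had 45.9 FPKM in peel (1646 reads) and 0.209 in flesh (9 reads), a ratio of 219 (115 to 480). It differed by 5.23 log2 units at day 6 and 3.51 at day 9. The putative MYB gene Csa6G121970 had 29.3 against 0.842 FPKM at day 3 and 80.3 against 0 at day 6.

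Most phenolic genes, the subject of the study, were within 4-fold at day 3. Phenylalanine ammonia-lyase, cinnamate 4-hydroxylase and 4-coumarate-CoA ligase are the entry enzymes that feed flavonoids, tannins and lignin. Of their 30 described genes, 1 was past 4-fold toward peel (3.33%, close to the 2.72% of all genes) and none toward flesh, with a median of 0.32. That gene was a 4-coumarate-CoA ligase (Csa1G050290) with 37.3 FPKM in peel and 5.64 in flesh. It had 19.3 against 12.6 FPKM at day 6 and 9.06 against 8.18 at day 9. By family the day 3 medians differed. The ammonia-lyases had 0.15, the cinnamate 4-hydroxylases 1.33 (5 described genes) and the ligases 0.79 (10 described). The hydroxylases summed to 75.0 FPKM in peel and 66.3 in flesh. The 16 ammonia-lyases, 15 of them described, summed in peel to 341, 509 and 1232 FPKM over the 3 days. In flesh they summed to 292, 52.9 and 113 FPKM. The list median was 2.36 at day 6 and 3.17 at day 9, so over the whole list the tissues were closer at day 3 than at either later day. The ligases alone had a median of 0.56 at day 6, below that of day 3.

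Some later enzymes of the pathway showed the opposite course. Of 26 described flavonoid genes, 4 were past 4-fold toward peel (15.4%) and none toward flesh. Flavanone 3-hydroxylase (Csa3G002800), which makes the dihydroflavonols that precede flavonols and catechins, had 100.4 FPKM in peel (3718 reads) and 1.20 in flesh (53 reads). Its ratio was 83.8 (63.9 to 112). At day 6 it had 10.7 against 1.39 FPKM, and at day 9 0.516 against 0.418. A flavonoid 3',5'-hydroxylase (Csa1G013190), a cytochrome P450 that adds hydroxyl groups to the flavonoid ring, had 19.5 against 0.359 FPKM, with 4.96 against 0 at day 6 and 0.286 against 0 at day 9. An isoflavone reductase-like gene (Csa7G002520) had 24.9 against 0.345 FPKM at day 3, 2.54 against 0.149 at day 6 and 0.134 against 0 at day 9. Of 4 polyphenol oxidase genes, which brown phenolics in cut tissue, 1 was described. It (Csa1G073640) had 21.3 FPKM in peel and 0.120 in flesh, a ratio of 178 (86.1 to 444), and under 1 FPKM in both tissues at days 6 and 9. The flavonoid genes named here and the polyphenol oxidase had their highest peel level of the 3 days at day 3. Of the 4 flavonoid genes past 4-fold at day 3, 3 were past it the same way at day 6. At day 9 it was 1, a gene past 4-fold at all 3 days. The flavonoid list had medians of 0.13, 0.36 and 0.23 over the 3 days. The triterpene and cucurbitacin list, which covers bitter compounds, had 0 of 5 past 4-fold. That is too few genes to set against the 2.72% toward peel and 0.879% toward flesh of all described genes.

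Lists of cell machinery genes had few or no members past 4-fold. No gene was past it in either direction among 57 described photosynthesis genes, 21 of chlorophyll synthesis, 21 of the carotenoid pathway, 31 histones and 151 cytosolic ribosomal proteins. Of all described genes, 2.72% were past it toward peel and 0.879% toward flesh, so 0 says little for the lists of 21 and 31. Cytosolic ribosomal proteins had a small difference of 1 sign: 137 of 151 were higher in peel, with a median of 0.29 log2 units. Their median was -0.06 at day 6 and -0.31 at day 9. Photosynthesis genes had medians of 0.25, -0.08 and -0.51 over the 3 days. The rubisco small chain Csa5G609710, a part of the carbon-fixing enzyme, had 588 FPKM in peel and 217 in flesh, while the chlorophyll a-b binding protein Csa6G139750 had 301 and 527. Histones, which mark replicating cells, had a median of 0.14, and histone H3 (Csa4G026900) had 1053 against 875 FPKM. The cell cycle list had 0 of 199 past 4-fold toward peel and 3 toward flesh (1.51%). Those were a B-type cyclin (Csa3G778340) with 1.503 against 15.1 FPKM, a putative D-type cyclin (Csa6G499110) with 2.30 against 16.3 and cyclin-U4-1 (Csa6G078670) with 1.60 against 12.8.

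Wall and growth genes differed in a few members. Expansins and xyloglucan enzymes, which loosen walls, had 3 of 41 past 4-fold toward peel (7.32%) and 1 toward flesh (2.44%). The expansin Csa5G636630 had 45.1 FPKM in peel and 5.01 in flesh, whereas Csa6G014540 had 10.5 and 65.5. Pectin enzymes had 5 of 73 toward peel (6.85%) and 2 toward flesh (2.74%). Both of the latter were pectinesterases, with Csa1G597780 at 0.0957 against 10.3 FPKM. Cellulose synthases and their relatives had 2 of 30 toward peel, led by a cellulose synthase-like protein (Csa2G416240) at 144 against 18.5 FPKM. Aquaporins, the water channels, had 4 of 32 toward peel, among them aquaporin 2 (Csa6G445150) at 32.4 against 4.14 FPKM. Their summed level was nevertheless 5158 FPKM in peel and 8507 in flesh. The sugar list had 4 of 68 toward peel (5.88%), with a bidirectional sugar transporter (Csa3G159450) at 22.4 against 0.529 FPKM.

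Hormone genes other than those of ethylene gave smaller counts. Auxin genes had 4 of 147 toward peel (2.72%, the share of all genes) and 6 toward flesh (4.08%). The auxin-induced protein 5NG4 (Csa2G251520) had 64.9 FPKM in peel and 553 in flesh, with 17.0 against 1327 at day 6 and 11.6 against 1364 at day 9. The auxin-responsive protein Csa1G397130 had 295 against 43.8 FPKM. Gibberellin genes had 3 of 24 toward peel (12.5%) and 1 toward flesh (4.17%), shares above those of the ethylene genes. All 4 were past 4-fold the same way at day 6. The peel genes were gibberellin 2-oxidase (Csa4G075200), which inactivates the hormone, with 95.4 against 8.06 FPKM, and a pair of GID1 receptors, with Csa7G375730 at 23.7 against 3.21. A gibberellin-regulated family protein (Csa3G841990) had 0.165 against 13.98 FPKM. Abscisic acid genes had 5 of 73 toward peel, including a protein phosphatase 2C (Csa7G049260), a family that curbs signalling by this hormone, at 82.2 against 7.27. Cytokinin genes had 1 of 19, a cytokinin oxidase (Csa2G362450) that breaks the hormone down, at 0.0565 against 6.03 FPKM. Brassinosteroid genes had 0 of 9 past 4-fold, too few genes to set against the share of all genes. Heat shock and chaperone genes had 2 of 209 toward peel (0.957%) and 4 toward flesh (1.91%).

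Some genes past 4-fold lay next to each other. The next gene here is the next described gene on the chromosome, so genes under the FPKM limit may lie between neighbours. Of the 474 genes higher in peel, 67 (14.1%) had a next gene that was also at least 4-fold higher in peel. The share of all described genes was 2.72%. Of these pairs, 26 shared a product name. Of 150 genes higher in flesh with a next gene, 8 (5.33%) were followed by another, against 0.879% of all described genes. Among these, 3 pairs shared a name. All 9 runs of 3 or more such neighbours were higher in peel. They included the reductases on chromosome 1 at 9672067 to 9683629, 3 phloem protein 2 genes at 20087347 to 20109116 of the same chromosome, and 3 patatin-like lipases on chromosome 2 with an unknown protein between them. Neighbours of 1 family are copies that can share reads, so they are not independent observations.

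In 13 pairs of neighbours the genes were past 4-fold in opposite directions, beside 75 pairs in the same direction. Of all described genes, 2.72% were past it toward peel and 0.879% toward flesh. Whether 13 pairs are more than these shares would give was not tested, and not all of the pairs shared a product name. The DC2.15 pair was the widest. The UDP-glycosyltransferase Csa4G415930, at -4.70 log2 units, stood next to Csa4G415920 of the same name at 3.06. The fatty acid desaturases Csa4G006130, Csa4G006140 and Csa4G006150 had -3.13, 3.42 and -2.09 in a row. The O-methyltransferases Csa3G046220 and Csa3G046230 had -2.36 and 3.11. On chromosome 1, Agamous (Csa1G467100) followed a GDSL esterase (Csa1G467090) that was higher in peel, at 30.7 against 6.10 FPKM. Copies of 1 gene family thus held opposite tissues in several places at day 3.

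At the later days, more genes were past 4-fold. At day 6 the peel list held 880 genes (5.05%) and the flesh list 366 (2.1%), and at day 9 they held 1252 (7.14%) and 685 (3.91%). The days share no library. Of the 474 genes higher in peel at day 3, 292 (61.6%) were past 4-fold toward peel at day 6, 250 (52.7%) at day 9 and 218 (46.0%) at both. Of the 153 genes higher in flesh, 83 (54.2%) were past it at day 6, 50 (32.7%) at day 9 and 41 (26.8%) at both. Read from the later lists, the 292 genes were 33.2% of the day 6 peel list and the 250 were 19.97% of the day 9 peel list. The 83 and 50 flesh genes were 22.7% and 7.30% of the flesh lists of days 6 and 9.

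The day 3 differences that did not recur were of more than 1 kind. At neither later day were 150 of the peel genes (31.6%) and 61 of the flesh genes (39.9%) past 4-fold in the same direction. Of the peel genes, 75 were under 2-fold at both later days, and of the flesh genes, 23 were. The sign of the difference was kept by 449 of the 474 peel genes at day 6 (94.7%) and by 381 at day 9 (80.4%). In the flesh list it was kept by 136 of 153 (88.9%) and by 108 (70.6%). The opposite direction past 4-fold was reached by 1 peel gene, at day 9, and by 12 flesh genes at day 6 or 9. Over days 3, 6 and 9 the 474 peel genes had median differences of 2.69, 2.70 and 2.20, and the 153 flesh genes of -2.46, -2.19 and -0.99.

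**Figure D5:**
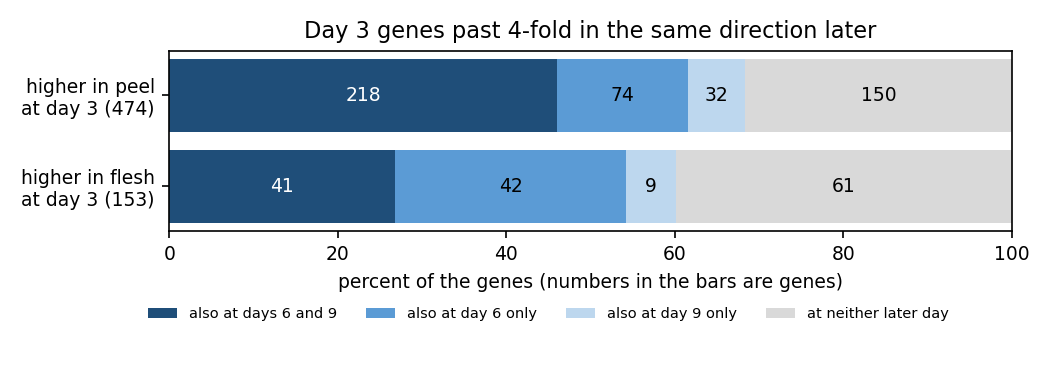
Horizontal bars give the percent of the 474 genes higher in peel and the 153 higher in flesh at day 3 that were past 4-fold in the same direction at days 6 and 9; numbers in the bars are genes. Both later days held 218 of the peel genes and 41 of the flesh genes, and neither held 150 and 61.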

How the data were processed

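RNA from peel and flesh (3 fruits mixed per library, 1 library per tissue and day) had mRNA isolated and ribosomal RNA removed, per the labels' protocols. The submitters' processing notes name TopHat and Cufflinks 2.1.1. Genome build, annotation and strand setting: not given in the sources used here. Without strand, a gene and its antisense or overlapping partner cannot be told apart. Of the genes, 1023 shared a locus with another, 15 of them among the 627 past 4-fold. The authors deposited FPKM per gene and library, and columns that the file headers call counts. Those are a scaled signal that the authors made from counts before they deposited it: each value is a multiple of 1 step per library (0.565 to 1.07), and among values of up to 1000 steps, 99.99% to 100% were within 0.05 of a whole multiple. These recovered reads served as depth and for counting error. A count test needs replicates and was not run.

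Differences used log2(FPKM + 1), which understates the change of low genes. Intervals are exact (Clopper-Pearson) for the split of a gene's reads between the libraries, rescaled to FPKM, and were tested on simulated reads (Python 3.11.15, scipy 1.17.1). They cover counting error only. Gene names are the table's product descriptions. The 44 lists are sets of words in those descriptions, and each is described by its counts, to be read against the share of all described genes (2.72% toward peel, 0.879% toward flesh). The members, the lists and the limits were chosen with earlier results of these data known. Named genes are the 15 widest differences each way with 5 FPKM and a product name, and up to 3 of the most abundant members past 4-fold per list and direction (the 2 most abundant where none was); others were chosen after their values were seen. Sequences are not used here.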

Additional observations from a re-analysis of the deposited data

Results flagged for a closer look

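A few genes were past 4-fold toward 1 tissue at day 3 and past it toward the other at day 9, each value from 1 library per tissue, and the difference between the days was not tested. The peroxidase Csa4G285730 differed by -2.43 log2 units at day 3 (0.302 FPKM in peel, 6.00 in flesh) by 0.92 at day 6, and by 7.25 at day 9 (387 and 1.54). Another peroxidase, Csa4G285760, differed by -2.09, -0.29 and 2.54 over the 3 days. Beta-glucosidase D7 (Csa1G611290), an enzyme that frees compounds from their sugars, differed by -2.41, 0.10 and 3.43. The fatty acid desaturase Csa4G006060 differed by -4.19, -2.95 and 2.06, and the potassium transporter kup 2 (Csa7G395270) by -3.29, -0.59 and 2.98. GH3.3 (Csa6G492310), which joins auxin to amino acids, differed by 3.72, 2.72 and -3.37, with 17.1 against 0.374 FPKM at day 3 and 1.44 against 24.2 at day 9. The homing endonuclease CsaUNG030430 differed by -2.92, 0.00 and 2.84. Its day 3 value rested on 5 reads in flesh and its day 9 value on 2 reads in peel, each with 0 in the other tissue. The exact lower limit of its day 3 ratio of flesh to peel was 0.774, so counting error alone covers equal levels. All 7 use the day 9 peel library, which lay apart from the other libraries, and none of the 7 was past 4-fold in the opposite direction at day 6.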

How the results depend on the processing

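The counts depended on the pseudocount. With a pseudocount of 0.1 FPKM the peel list held 818 genes and the flesh list 349, and with 5 FPKM they held 170 and 34. Other settings (no filter, 5 FPKM in either library, the median gene ratio or upper quartile made equal, recovered reads scaled to library depth) stayed within 1.5 times of 474 and 153. Added after seeing the data, the share of later peel genes already past 4-fold at day 3 was 21.9% for day 6 and 11.5% for day 9 with a pseudocount of 5. Of 155 named genes past 4-fold, 69 were under it with a pseudocount of 5, 13 with reads scaled to depth, 3 with equal upper quartiles and none with the other settings. Among 16 list medians of at least 0.2 in size, that of germin-like proteins changed sign, with 5 FPKM in either library. No paired analysis was possible because each tissue and day had 1 library, and none could be left out. Few reads limit 13 of the peel genes and 25 of the flesh genes past 4-fold, which had at most 20 in the higher library.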
